A study of Mus musculus with 32 samples.

Results

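The genes described here are 6 members of the ATF4 arm of the integrated stress response, Atf4, Ddit3, Asns, Phgdh, Slc3a2 and Trib3, of 8251 genes that had a probe set of their own on the array. They were taken by symbol, and every probe set annotated to one of them alone was kept, which gave 7 probe sets, with a pair for Asns and 1 for each other gene. Tests could be made for 5 of the 7. Phgdh, which encodes the first enzyme of serine synthesis from glycolysis, and the second Asns probe set were above the 30th percentile of their own array on 0 of 32 arrays, and were therefore not tested.

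In the integrated stress response, kinases that sense amino acid lack, unfolded protein in the endoplasmic reticulum, haem deficiency or viral RNA phosphorylate the initiation factor eIF2. Translation as a whole then falls while that of Atf4 mRNA rises, through short upstream reading frames, so that much of the control of ATF4 lies in its translation and not in its mRNA. ATF4 is a transcription factor that pairs with C/EBP proteins and switches on genes of amino acid synthesis, amino acid import and tRNA charging, together with Ddit3 (CHOP) and Trib3, which act when the stress lasts. The liver uses this pathway in its response to amino acid supply and to secretory load.

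All mice were male C57BL/6 animals of 3 months, homozygous for a floxed allele of Rps6, whose product S6 belongs to the ribosome's small subunit. Cre plus mice also carried the mx-cre transgene, in which the interferon-responsive Mx promoter drives the Cre recombinase, and deletion was started with polyinosinic-polycytidylic acid, a double-stranded RNA that triggers interferon. This promoter is not restricted to hepatocytes. Cre minus mice had the same floxed gene without the transgene, and the labels do not say whether they received the RNA as well. Partial hepatectomy cuts away a share of the liver and makes the remnant regrow, and liver was taken at 0, 20, 30 and 40 h. Cre minus livers numbered 4 at every time, while Cre plus livers numbered 4, 4, 3 and 5 in that order, in 2 batches named PHX2 and PHX3 that each held livers of every group. Whether the livers of a group are separate mice is not stated, so the p-values speak only of variation among these samples, which may be technical.

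The arrays were 1-colour Affymetrix arrays of biotin-labelled RNA, and all values are log2 levels on which a difference of 1 is a doubling. Array medians lay between 5.88 and 5.99. The Rps6 probe set, which also reads a processed copy of the gene, ranged from 10.99 to 11.82 in the 16 Cre minus livers (median 11.39) and from 6.24 to 7.69 in the 16 Cre plus livers (median 7.06), without overlap. Mean correlation with the other arrays of the same group ran from 0.9425 to 0.9907, and 3 arrays were under 0.95 (30 h Cre minus replicate C, 30 h Cre plus replicate A and 40 h Cre plus replicate D). The summed level of 6 hepatocyte markers lay between 15.18 and 15.61 in all groups, and sums of other cell types' markers that did not overlap between the groups of a called member comparison are given with that member.

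To show where ATF4 could bind, the 250 bases before the annotated start of each member (RefSeq, GRCm38.p6) were searched on both strands for the core of the C/EBP-ATF response element, TGATGNAA, whose other strand reads TTNCATCA. The motif occurred in 1134 of 32851 windows of this length, or 3.45%. Of the 6 members, 1 held a match, Asns, at 23 to 16 bases before its start. The windows of the 3 members with a called change are printed 5′ to 3′ on the strand of the gene, with the match in capitals: Asns at chr6:7693210-7693459 (minus strand), Slc3a2 at chr19:8713898-8714147 (minus strand) and Ddit3 at chr10:127290543-127290792 (plus strand).
Asns: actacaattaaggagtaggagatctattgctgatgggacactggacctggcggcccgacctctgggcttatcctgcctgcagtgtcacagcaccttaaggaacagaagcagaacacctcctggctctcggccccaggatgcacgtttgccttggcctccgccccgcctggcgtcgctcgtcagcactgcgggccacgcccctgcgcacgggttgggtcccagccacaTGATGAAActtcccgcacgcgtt
Slc3a2: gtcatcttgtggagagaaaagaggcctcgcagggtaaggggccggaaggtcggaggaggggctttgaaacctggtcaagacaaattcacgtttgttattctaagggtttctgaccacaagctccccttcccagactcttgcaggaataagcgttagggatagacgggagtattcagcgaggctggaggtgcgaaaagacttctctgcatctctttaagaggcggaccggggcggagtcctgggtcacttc
Ddit3: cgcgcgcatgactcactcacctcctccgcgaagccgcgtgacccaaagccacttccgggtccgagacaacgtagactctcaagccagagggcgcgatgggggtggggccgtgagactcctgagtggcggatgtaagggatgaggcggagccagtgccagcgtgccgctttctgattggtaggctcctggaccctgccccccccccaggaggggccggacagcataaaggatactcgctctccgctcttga
The lack of capitals in the Slc3a2 and Ddit3 windows says only that these letters do not occur there.

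The first question of the design is how livers without Rps6 differ from livers with it at each time. A difference was called when limma's moderated test, run over 9249 probe sets with batch as a term, gave a Benjamini-Hochberg adjusted p under 0.05. Of the 5 tested members, Ddit3 was higher in Cre plus livers at 40 h and no other genotype difference was called. At 40 h, 1 of 5 members was called, where 5.35% of all probe sets were. At 0 h none of the 5 was called and none had an unadjusted p under 0.05, against 0.0649% of all probe sets called. The corresponding count at 20 h was 0, again with none under 0.05 unadjusted, beside 0.292% of all. At 30 h it was 0 as well, beside 0.281% of all. An unadjusted p under 0.05 was found at 30 h for 2 of the 5 (Ddit3 and Asns) and for 11.3% of all probe sets.

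**Figure D1:**
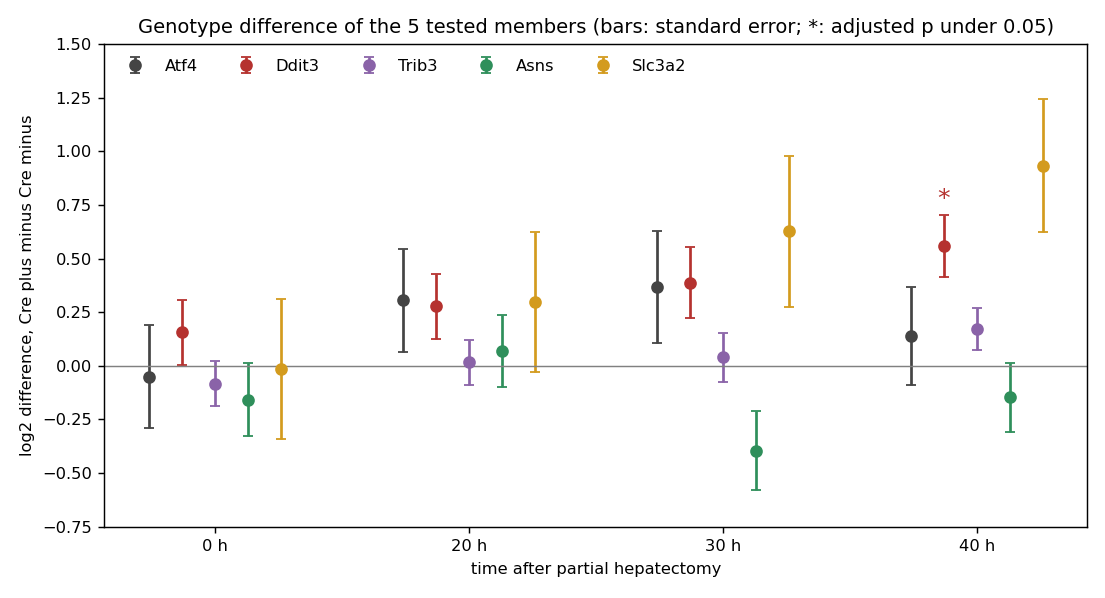
Difference between Cre plus and Cre minus livers of the 5 tested members at each time (log2, Cre plus minus Cre minus; points are limma estimates, bars standard errors, the star an adjusted p under 0.05). Slc3a2 has the largest estimate at 40 h, 0.93, with the widest bar, and Ddit3 at 0.56 is the one past the threshold.

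The second question is how each genotype changes after the operation. In Cre minus livers 0 of 5 members was called at 20 h (2 under 0.05 unadjusted, Asns and Slc3a2), 1 at 30 h (Asns, higher) and 1 at 40 h (Ddit3, lower). The shares of all probe sets called were 7.37%, 3.14% and 4.77%, and 21.3% were under 0.05 unadjusted at 20 h. In Cre plus livers 2 were called at 20 h (Asns and Slc3a2, both higher), 1 at 30 h (Slc3a2, higher) and 0 at 40 h (2 under 0.05 unadjusted, Asns and Slc3a2). Here the shares of all probe sets called were 9.07%, 9.89% and 9.66%, and 23.8% were under 0.05 unadjusted at 40 h. Whether these changes differ between genotypes was tested by the genotype difference at each time minus that at 0 h, and no member was called in any of the 3 tests. Over all probe sets that test called 0% at 20 h (132 under 0.05 unadjusted, none of them a member), 0.0108% at 30 h (again with no member under 0.05 unadjusted) and 0.584% at 40 h, where Slc3a2 alone among the members was under 0.05 unadjusted, as were 6.09% of all probe sets. The 3 genotype tests of change and the time comparisons share the 0 h livers.

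**Figure D2:**
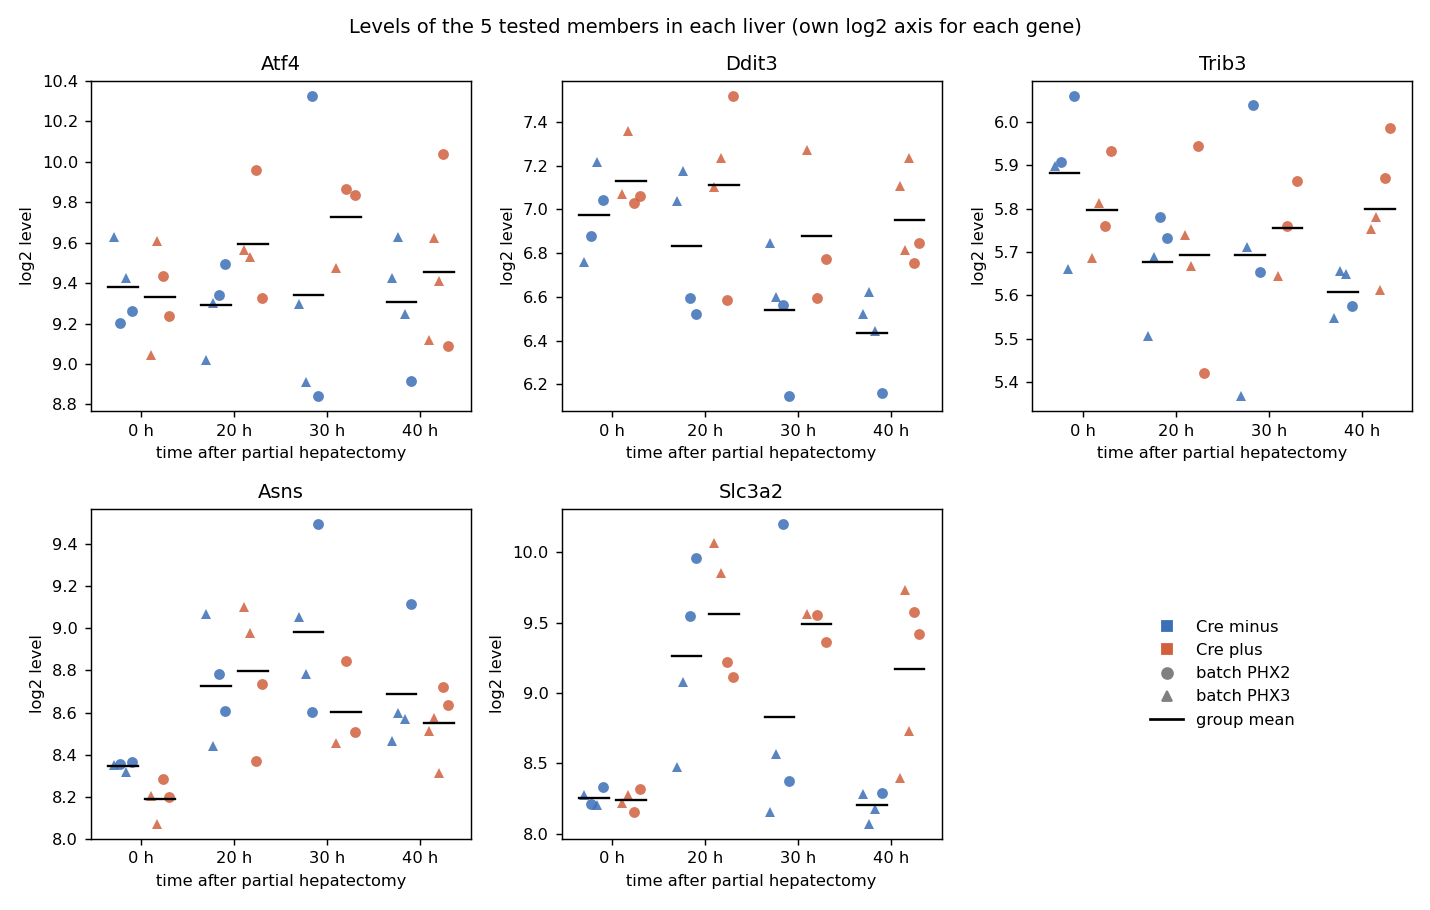
Log2 level of the 5 tested members in each of the 32 livers by time and genotype, circles for batch PHX2, triangles for PHX3, black lines for group means, each gene on its own axis. Slc3a2 is tight in both groups at 0 h (8.15 to 8.33) and widest in Cre minus livers at 30 h (8.16 to 10.20), and the 40 h groups of Ddit3 do not overlap.

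Atf4, the transcription factor at the head of the pathway, was called in no comparison. At 0 h its level was 9.63, 9.20, 9.43 and 9.26 in Cre minus livers and 9.04, 9.61, 9.44 and 9.24 in Cre plus livers. At 30 h it read 9.30, 8.91, 10.33 and 8.84 in Cre minus livers against 9.48, 9.87 and 9.84 in Cre plus livers. One Cre minus liver, replicate C, stood above every other liver of the series, and without it the remaining 3 lay below all Cre plus livers of that time. The estimated genotype differences were -0.05, 0.31, 0.37 and 0.14 at 0, 20, 30 and 40 h, with standard errors between 0.23 and 0.26 and adjusted p-values from 0.629 upwards. At 30 h the difference ranged from 0.17 without Cre minus replicate D to 0.71 without C, neither of them called. It became 0.91 with an adjusted p of 0.00903 when the 3 arrays that correlate under 0.95 with their group were left out, which leaves 2 Cre plus livers, and 0.73 with 0.00283 when arrays were weighted by quality. Within the batches it was 0.27 (PHX2) and 0.37 (PHX3, with 1 Cre plus liver). In the same 30 h Cre minus group the 3′ minus 5′ difference of the beta-actin control probe sets, a sign of RNA integrity, was 1.17, 1.11, 1.24 and 0.74 in replicates A to D, against 0.82, 0.81 and 0.88 in the Cre plus livers; its part in the result was not tested.

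Ddit3 encodes CHOP, a C/EBP-family factor that ATF4 induces and that promotes cell death in lasting stress. In Cre minus livers it fell after the operation, and in Cre plus livers the fall was not called. Its 0 h levels were 6.76, 6.88, 7.22 and 7.04 without Cre and 7.07, 7.36, 7.03 and 7.06 with it. At 20 h they were 7.04, 7.17, 6.60 and 6.52 without Cre and 7.10, 7.23, 6.59 and 7.52 with it. The groups overlapped at both times. By 30 h Cre minus livers read 6.85, 6.60, 6.56 and 6.15 and Cre plus livers 7.27, 6.60 and 6.77. At 40 h the Cre minus values were 6.52, 6.62, 6.44 and 6.16 and the Cre plus values 7.11, 6.82, 7.24, 6.76 and 6.85. The lowest Cre plus liver at 40 h thus stood above the highest Cre minus liver, and this separation was seen in 2 of 5 members (Ddit3 and Slc3a2) and in 6.11% of all probe sets.

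The 40 h genotype difference of Ddit3 was 0.56 ± 0.14 (SE, 4 and 5 livers), or 1.47-fold, with an adjusted p of 0.0189. Within batches it was 0.64 (PHX2, with 1 Cre minus liver) and 0.52 (PHX3). Ddit3 itself was higher in PHX3 than in PHX2 by 0.29 ± 0.08 (SE; adjusted p = 0.00861), and without the batch term the 40 h difference was 0.52 with an adjusted p of 0.102. The adjusted p also passed 0.05 without Cre minus replicate A (0.0507), C (0.0612) or D (0.0517), and with the replicate letter as a block (0.0575). From 0 h to 40 h Ddit3 fell by 0.61 ± 0.15 in Cre minus livers (adjusted p = 0.0171), a 1.53-fold change that lost its call without the batch term (0.104) or without 0 h replicate C (0.0711) or D (0.0588). In Cre plus livers the 40 h change was -0.21 ± 0.14 (adjusted p = 0.41). The genotype difference at 40 h minus that at 0 h was 0.40 ± 0.21, with a 95% interval from -0.03 to 0.83 and an adjusted p of 0.898, so the 2 time courses were not shown to differ.

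Between 0 h and 40 h in Cre minus livers, where Ddit3 fell, 5 erythroid markers summed to 10.40 to 11.46 and then 11.79 to 12.66. Over the same interval 5 endothelial markers went from between 8.25 and 8.34 to between 8.04 and 8.14, and 5 pancreatic acinar markers from between 10.38 and 10.55 to between 9.84 and 10.15. Other cell types' markers also differed between the genotypes at 40 h. Summed over 10 Kupffer cell and macrophage markers, the level was 11.22 to 11.89 in Cre minus and 10.36 to 11.04 in Cre plus livers, and over 5 erythroid markers it was 11.79 to 12.66 and 9.41 to 11.01. Neither pair of ranges overlapped, and the part of any of these markers in the member differences was not tested. The erythroid markers differed in brightness, with median percentiles of the array from 34.1 (Slc4a1) to 94.2 (Hba-a1), and Hbb-b2 went as low as 16.5. In whole livers, fewer cells of a type and less RNA per cell cannot be told apart. At 30 h the macrophage sums were 11.08 to 11.59 and 10.43 to 10.99, and the erythroid sums 10.79 to 11.78 and 9.12 to 10.24, again apart. The hepatocyte sum at 40 h overlapped, at 15.39 to 15.56 in Cre minus and 15.18 to 15.61 in Cre plus livers.

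Trib3, a pseudokinase that ATF4 and CHOP induce and that dampens the pathway, was not called in any comparison. Its levels ran from 5.37 to 6.06 over all 32 livers. At 40 h Cre minus livers read 5.55, 5.66, 5.65 and 5.58 and Cre plus livers 5.75, 5.78, 5.61, 5.87 and 5.99, overlapping in 1 Cre plus liver. The genotype differences were -0.08, 0.02, 0.04 and 0.17 in order of time (SE 0.10 to 0.11), and the 40 h one had an adjusted p of 0.409. In Cre minus livers the changes from 0 h were -0.20, -0.19 and -0.24 at 20, 30 and 40 h (adjusted p = 0.261, 0.4 and 0.239). At 40 h all 4 Cre minus livers lay below all 4 of 0 h, the closest by less than 0.01. Of all probe sets, 15.2% stood apart in that comparison, in either direction.

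Asns encodes asparagine synthetase, which makes asparagine from aspartate and glutamine. It rose after the operation in both genotypes, with 1 called time in each. In Cre minus livers the 0 h values were 8.35, 8.35, 8.32 and 8.37, and those of 20 h 9.07, 8.44, 8.78 and 8.61. At 30 h they were 9.05, 8.78, 8.60 and 9.50, and at 40 h 8.47, 8.60, 8.57 and 9.11. Every Cre minus liver taken after the operation was thus above every one at 0 h, and the 0 h group itself spanned less than any later one. Cre plus livers read 8.20, 8.07, 8.29 and 8.20 at 0 h and 9.10, 8.98, 8.37 and 8.73 at 20 h. Their later values were 8.45, 8.84 and 8.51 at 30 h and 8.51, 8.57, 8.31, 8.72 and 8.63 at 40 h. Again no liver after the operation overlapped with those of 0 h.

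The rise of Asns was called at 30 h in Cre minus livers, at 0.64 ± 0.17 (SE; 1.56-fold, adjusted p = 0.0356), and at 20 h in Cre plus livers, at 0.61 ± 0.17 (1.52-fold, adjusted p = 0.024). At the other times the estimates were 0.38 (20 h, adjusted p = 0.188) and 0.36 (40 h, 0.286) in Cre minus livers and 0.40 (30 h, 0.173) and 0.37 (40 h, 0.155) in Cre plus livers. For comparison, ranges did not overlap in 16.9%, 10.3% and 15.2% of all probe sets at 20, 30 and 40 h in Cre minus livers and in 16.8%, 24.8% and 10.6% in Cre plus livers. The 30 h call in Cre minus livers was lost on leaving out any liver but 30 h replicate C, with an adjusted p of up to 0.12 (without 30 h replicate D, where the rise was 0.47), and at 0.133 in a fit of those 2 groups alone. The estimate was 0.25 at 20 h without 20 h replicate A and 0.21 at 40 h without 40 h replicate D. The 20 h call in Cre plus livers was lost without 0 h replicate B (0.0639) or D (0.0573) or 20 h replicate A (0.136) or B (0.0999), and the rise was 0.31 in PHX2 and 0.90 in PHX3.

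Between genotypes, the 4 Cre plus livers at 0 h were below the 4 Cre minus livers for Asns. At that time the genotypes did not overlap, in either direction, in 3.21% of all probe sets. The 10 macrophage markers were apart as well, at 11.57 to 11.94 in Cre minus and 10.94 to 11.53 in Cre plus livers, and again at 20 h, at 11.44 to 11.76 and 10.27 to 10.91. For Asns the genotype difference at 0 h was -0.16 ± 0.17, with an adjusted p of 1. At 20, 30 and 40 h the genotype difference of Asns was 0.07, -0.39 and -0.15, and the 30 h value had an adjusted p of 0.411 and was -0.22 without Cre minus replicate D. Beside the 30 h rise in Cre minus livers, acinar markers went from between 10.38 and 10.55 at 0 h to between 9.59 and 10.10, and 4 B cell markers from between 8.79 and 8.93 to between 8.60 and 8.77. Beside the 20 h rise in Cre plus livers, macrophage markers went from between 10.94 and 11.53 to between 10.27 and 10.91. Their part was not tested. The second Asns probe set read 3.20 to 4.13 over the 32 livers, too dim to bear on these values, and Phgdh read 3.66 to 4.05.

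Slc3a2 encodes CD98hc, the heavy chain that carries the leucine and cystine exchangers to the cell surface. Its level rose after the operation, and the rise was called in Cre plus livers at 20 and 30 h. At 0 h the values were 8.27, 8.21, 8.20 and 8.33 in Cre minus and 8.22, 8.28, 8.15 and 8.32 in Cre plus livers, close together in both. At 20 h Cre minus livers read 8.48, 9.08, 9.55 and 9.96 and Cre plus livers 10.07, 9.85, 9.22 and 9.11. Each 20 h liver was above all 0 h livers of its genotype, and the genotypes overlapped. At 30 h the Cre minus values were 8.16, 8.57, 10.20 and 8.38 and the Cre plus values 9.56, 9.56 and 9.36. All Cre minus livers but replicate C were below the Cre plus livers, and replicate C was the highest liver of the series for this gene. At 40 h Cre minus livers read 8.28, 8.07, 8.17 and 8.29, within or just below the 0 h range. Cre plus livers then read 8.39, 9.73, 8.73, 9.58 and 9.42, all above every Cre minus liver.

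In Cre plus livers the change of Slc3a2 from 0 h was 1.32 ± 0.33 at 20 h (2.5-fold, adjusted p = 0.0117), 1.21 ± 0.35 at 30 h (2.32-fold, 0.0296) and 0.95 ± 0.31 at 40 h (1.94-fold, 0.0502). In order of time these changes were 0.93, 1.22 and 1.26 within PHX2 and 1.71, 1.31 and 0.71 within PHX3. At 30 h PHX3 held 1 Cre plus liver. The 20 h call was lost without 20 h replicate A (1.11, adjusted p = 0.0777) or B (0.0569). The 30 h call was lost without 0 h replicate C (0.0816) or D (0.065), without 30 h replicate A (0.116) or B (0.0799), and with the replicate letter as a block (0.069). The 40 h change gained a call without 40 h replicate A (1.12, 0.0246) or C (0.0441), and on leaving out a liver it ranged from 0.79 to 1.12 (adjusted p up to 0.15). In Cre minus livers the changes were 1.01 ± 0.33 at 20 h (2.01-fold, adjusted p = 0.0567), 0.57 ± 0.33 at 30 h (0.42) and 0.01 ± 0.33 at 40 h (0.994). Without 20 h replicate A the first of them was 1.24 and called (0.0231), and without 30 h replicate C the second was 0.13. On leaving out a liver the 20 h change in Cre minus livers ranged from 0.81 to 1.24 (adjusted p up to 0.204).

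The genotype difference of Slc3a2 was -0.01, 0.30, 0.63 and 0.93 at 0, 20, 30 and 40 h, with standard errors of 0.31 to 0.35. At 40 h the 95% interval was 0.29 to 1.57, the estimate corresponded to 1.91-fold, and the adjusted p was 0.0845. That difference was called without Cre plus replicate A, the lowest Cre plus liver (1.11, adjusted p = 0.0348), and without the 3 arrays under 0.95 (0.87, 0.0432). On leaving out a liver it ranged from 0.76 to 1.11, with adjusted p-values up to 0.216. At 30 h the difference had an adjusted p of 0.518, and it was 1.08 and called (0.0476) without Cre minus replicate C. Over all livers left out in turn it ranged from 0.42 to 1.08, with adjusted p-values up to 0.884. At 20 h the batches disagreed in direction, at -0.58 in PHX2 and 1.18 in PHX3, and at 30 h they gave 0.17 and 1.20 (PHX3 with 1 Cre plus liver). At 40 h they were 1.21 (PHX2, with 1 Cre minus liver) and 0.78. The difference at 40 h minus that at 0 h was 0.94 ± 0.45 with an adjusted p of 0.802. The macrophage and erythroid marker sums given above for 40 h apply to this comparison too, and the macrophage sums of Cre plus livers at 0 and 20 h to the 20 h rise. Beside the 30 h rise in Cre plus livers, the sums of hepatocyte (15.41 to 15.48, then 15.53 to 15.59), T or NK cell (at most 7.14, then up to 7.26, apart by less than 0.01), stellate cell (9.31 to 9.34, then 9.36 to 9.43) and cholangiocyte markers (5.83 to 5.96, then 6.05 to 6.19) were higher without overlap, and their part was not tested. Only 1 of 5 T or NK cell markers and 2 of 3 cholangiocyte markers on the array passed the filter. These sums thus include probe sets too dim to test, and do not show that these cell types rose.

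When the 8 groups were ordered by mean level, no 2 neighbours stood apart without overlap for Atf4, Ddit3, Trib3 or Slc3a2. For Asns the 1 such step was between Cre plus and Cre minus livers at 0 h, the lowest groups. The order ran from 8.19 to 8.98 for Asns, whose highest group was Cre minus at 30 h, and from 8.20 (Cre minus, 40 h) to 9.56 (Cre plus, 20 h) for Slc3a2. For Ddit3 it ran from 6.44 (Cre minus, 40 h) to 7.13 (Cre plus, 0 h).

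Whether livers of a group that were high in one member were also high in another was examined on residuals from group and batch, over 32 livers and 10 pairs of members. Residuals of Slc3a2 correlated with those of Atf4 (Pearson r = 0.58, permutation adjusted p = 0.0073; Spearman rho = 0.47, adjusted p = 0.0752) and with those of Trib3 (r = 0.55, permutation adjusted p = 0.0074; rho = 0.41, adjusted p = 0.0975). Without the 2 livers farthest from the median in Atf4, r with Slc3a2 was 0.33, and without the 2 farthest in Slc3a2, r with Trib3 was 0.43. Within PHX2 and PHX3 they were 0.69 and 0.41, and 0.57 and 0.52. Atf4 and Trib3 had r = 0.46 (permutation adjusted p = 0.0242; rho = 0.33, adjusted p = 0.166), which was 0.27 without 2 livers and 0.58 and 0.21 within batches. Atf4 and Asns ran opposite, at r = -0.47 (permutation adjusted p = 0.024; rho = -0.29, adjusted p = 0.174), which was -0.23 without 2 livers and -0.64 and -0.12 within batches. None of these 4 pairs passed 0.05 by rank after adjustment, and each coefficient was nearer 0 without the 2 outermost livers. The other 6 pairs, which include all 4 with Ddit3, did not pass 0.05 by either measure. The permutations exchanged residuals freely among all 32 livers, although their spread differed between groups. For Slc3a2 the standard deviation was 0.06 in Cre minus livers at 0 h and 0.93 at 30 h. The permutation p-values may therefore be too small.

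**Figure D3:**
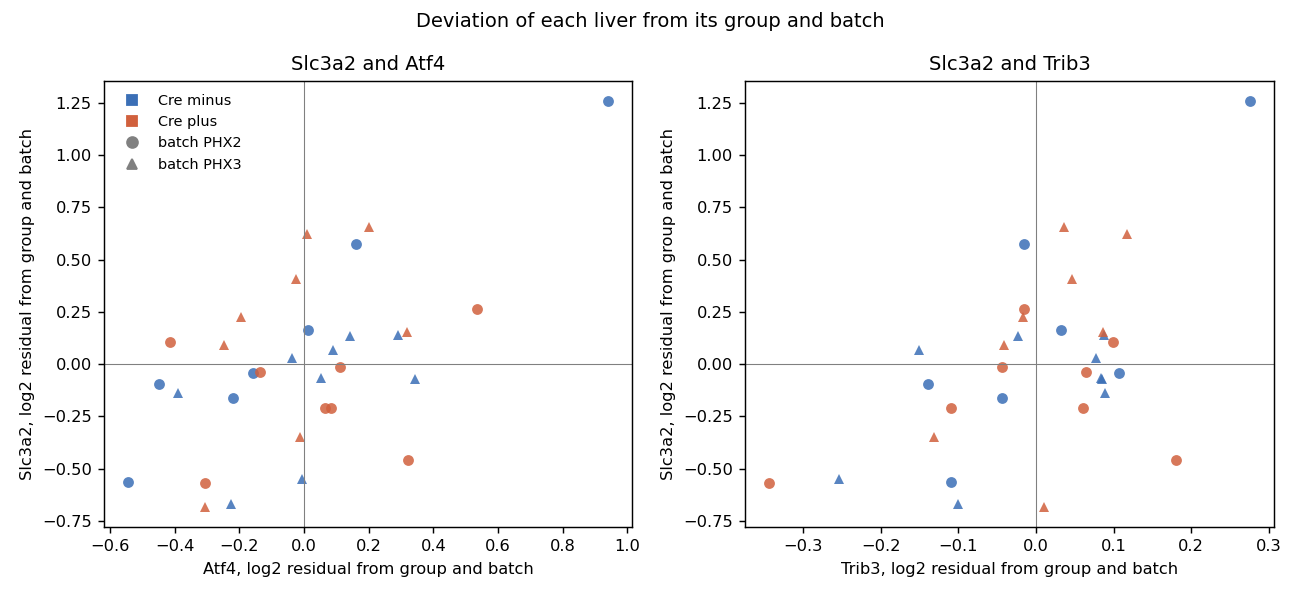
Deviation of each liver from its group and batch for Slc3a2 against Atf4 and against Trib3 (log2 residuals, blue Cre minus, orange Cre plus, circles PHX2, triangles PHX3, 32 livers). The point at the upper right in both panels is 30 h Cre minus replicate C, 1 of the 3 arrays that correlate under 0.95 with their group, and r is 0.58 with Atf4 and 0.55 with Trib3.

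The wider pathway was read from 57 genes in 6 roles, of which 44 were on the array and 41 were tested, each by its brightest probe set. Between genotypes the 41 genes gave 0 calls at 0, 20 and 30 h, and at 40 h 0 rose and 1 fell, or 2.44% against 5.35% of all probe sets. Unadjusted p-values under 0.05 were found for 1, 0, 8 and 9 of the 41 in order of time, or 2.44%, 0%, 19.5% and 22.0%, against 1.51%, 4.42%, 11.3% and 16.9% of all probe sets. The gene that fell was Mthfd2, the mitochondrial one-carbon enzyme, at -0.49 ± 0.13 (adjusted p = 0.0226). Its 40 h levels were 5.25 to 5.83 (median 5.54) in Cre minus and 4.86 to 5.32 (median 5.07) in Cre plus livers, and at 0 h they were 5.22 to 5.40 and 4.98 to 5.09. The call was lost without the batch term (0.0681) and without 40 h Cre minus replicate A, C or D or Cre plus replicate B (up to 0.0889). The median genotype difference at 40 h was 0.06 over the 41 genes and -0.01 over all tested probe sets. Array weights called 5 higher and 10 lower at 30 h and 5 higher and 1 lower at 40 h. Leaving out the 3 arrays under 0.95 called 3 and 3 at 30 h, and 3 and 1 at 40 h.

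After the operation, 2, 1 and 1 of the 41 genes rose in Cre minus livers at 20, 30 and 40 h, and 1, 1 and 2 fell. In Cre plus livers 1, 3 and 1 rose, and 2, 3 and 3 fell. In order of time the called shares were 7.32%, 4.88% and 7.32% in Cre minus and 7.32%, 14.6% and 9.76% in Cre plus livers, beside the 7.37%, 3.14%, 4.77%, 9.07%, 9.89% and 9.66% of all probe sets. On leaving out a liver, Cre minus livers gave 1 to 2 risen at 20 h, 0 to 1 fallen at 30 h and 1 to 3 fallen at 40 h. Cre plus livers gave 1 to 2 risen and 0 to 2 fallen at 20 h, and 1 to 3 of each at 30 h. The 3 tests of a genotype difference against that at 0 h called none of the 41, with 0, 3 and 0 under 0.05 unadjusted. Among regulators, 7 of 10 were tested. Cebpb, a partner of ATF4 on DNA and an early gene of liver regrowth, was called in all 6 time comparisons, at 1.20, 1.34 and 0.99 in Cre minus and 1.46, 1.75 and 1.34 in Cre plus livers (adjusted p from 2.48e-05 to 0.00318), and kept its call on leaving out any liver. The 30 h call in Cre minus livers was lost in a fit of those 2 groups alone (0.0681). Its genotype difference reached 0.53 ± 0.22 at 30 h (adjusted p = 0.334), and was called without Cre minus replicate C (0.80, 0.0239), without the 3 arrays under 0.95 (0.95, 0.00562) and with array weights (0.55, 0.00786). Ddit4, an inhibitor of mTORC1, rose in Cre plus livers at 30 h by 1.58 ± 0.39 (adjusted p = 0.0108; without 30 h replicate B, 0.0718), and its genotype difference was 1.52 at 30 h (0.0804) and 0.94 at 40 h (0.122). The 30 h difference was called without Cre minus replicate C (1.80, adjusted p = 0.0159), without the 3 arrays (2.42, 1.06e-07) and with array weights (2.27, 3.46e-06). Its excess over the 0 h difference was called without the 3 arrays too (2.10, 2.02e-04) and with array weights (1.99, 8.38e-04). At 30 h the arrays left out are the highest Cre minus liver of Ddit4 (7.10) and its lowest Cre plus liver (6.89), so that leaving them out widens the gap. It leaves 2 Cre plus livers, both of PHX2. Without the 3 arrays the 20 h and 40 h differences of Ddit4 were called as well (0.71, 0.0286, and 0.55, 0.0264). None of the 3 arrays is from 20 h, and with all arrays that difference was also 0.71 (adjusted p = 0.999). The 20 h call thus rests on the spread shared by all groups and the adjustment, not on other 20 h values. At 40 h the arrays left out include Cre plus replicate D, the highest liver (8.32). Its change from 0 h to 30 h in Cre plus livers was 2.35 in PHX2 and 0.43 in PHX3, which held 1 such liver at 30 h.

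**Figure D4:**
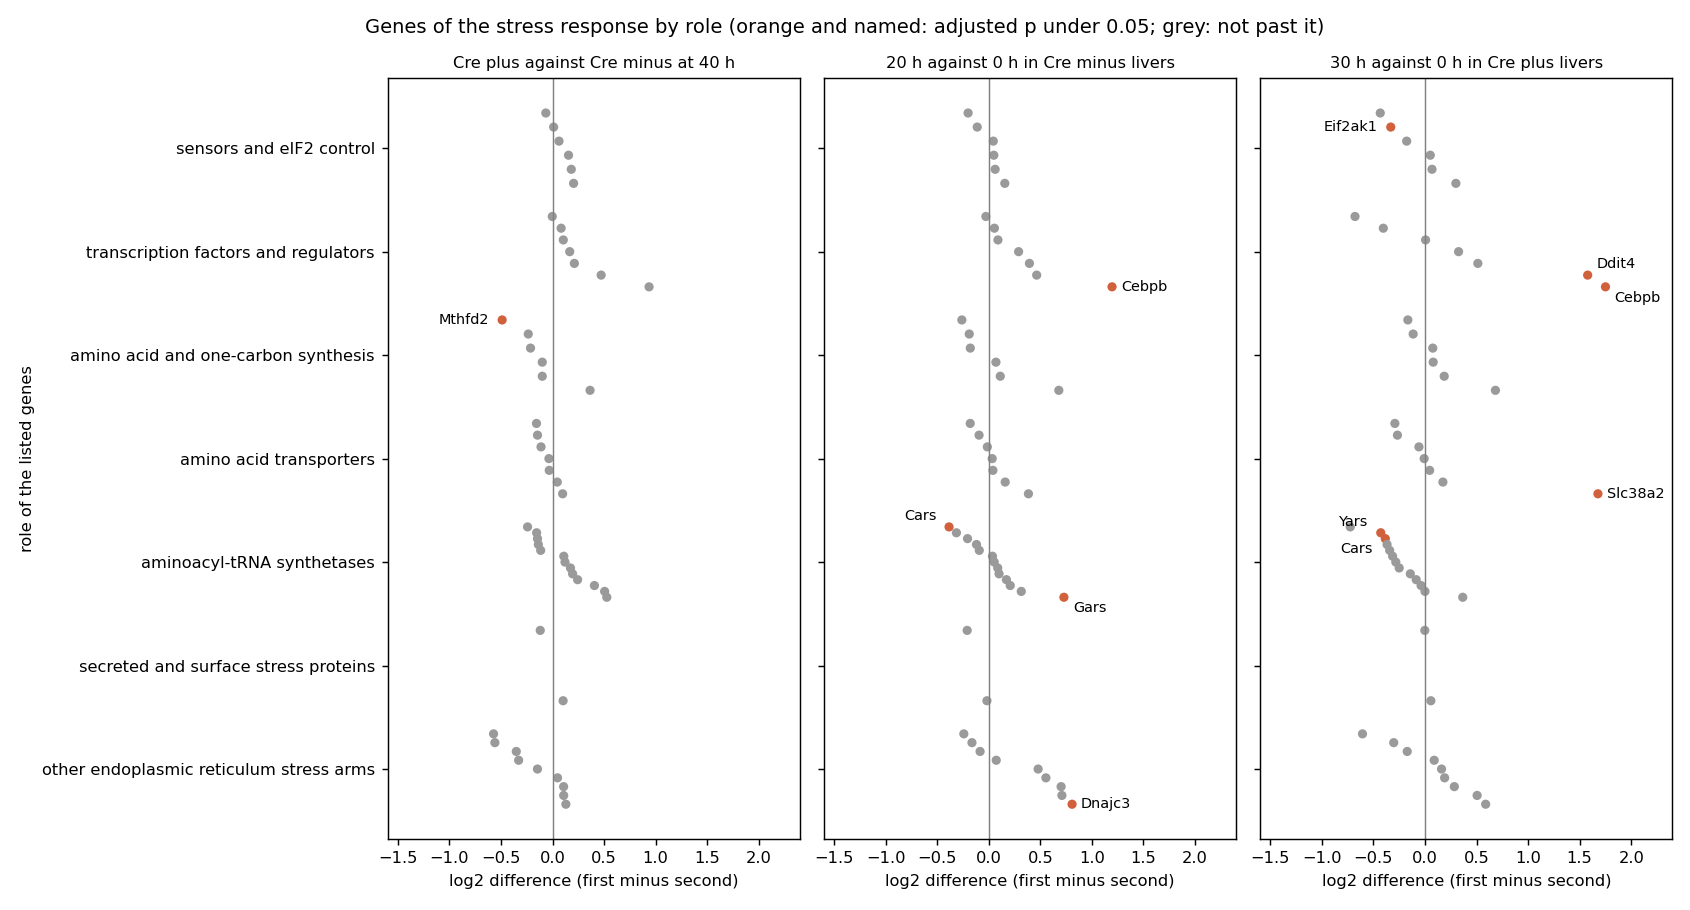
Log2 difference of each tested gene of the pathway lists by role in 3 comparisons (first group minus second), orange and named where the adjusted p was under 0.05. Mthfd2 alone is called between genotypes at 40 h, and after the operation the called genes of the regulator list lie to the right while the called tRNA synthetases other than Gars lie to the left.

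Of the sensors, 6 of 8 were tested. Eif2ak1, the haem-regulated eIF2 kinase, fell in Cre plus livers by 0.24, 0.33 and 0.35 at 20, 30 and 40 h (adjusted p = 0.0354, 0.00979 and 0.00253) and in Cre minus livers at 40 h by 0.30 (0.0176). Its call at 40 h in Cre plus livers held on leaving out any liver. The 30 h one was lost without 30 h replicate C, the one in Cre minus livers without 0 h replicate A or D or 40 h replicate B, and the 20 h one without any liver but 0 h replicate A. In a fit of the compared groups alone the calls at 30 h (0.0704) and 20 h in Cre plus (0.0677) and at 40 h in Cre minus livers (0.0819) were lost. Without the batch term those at 30 h (0.0513) and 20 h (0.108) were lost, and with arrays centred on their median the one at 20 h (0.0502). Ppp1r15b, a subunit of the eIF2 phosphatase, was not called, with a 40 h change of -0.23 in Cre minus livers (adjusted p = 0.508).

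For amino acid synthesis, 6 of 11 genes were tested and none was called over time. Psat1, the serine pathway enzyme that follows Phgdh, had changes of 0.68, 0.83 and 0.13 in Cre minus livers at 20, 30 and 40 h. In Cre plus livers they were 1.10, 0.68 and 0.81 (SE 0.42 to 0.48, lowest adjusted p = 0.121). The 20 h change in Cre plus livers was called at 0.0231 without the 3 arrays, none of which is of these groups. It was called at 0.0182 in a fit of those groups alone and at 6.01e-04 with array weights. Levels of Psat1 in the 30 h Cre minus group ran from 4.31 to 7.09. At 0 h they were 4.12 to 4.44 in Cre minus and 3.88 to 4.14 in Cre plus livers. These are close to the 4.13 reached by the dim second Asns probe set, so the size of a change from 0 h is uncertain. Aldh18a1, which makes proline and ornithine precursors, stayed between -0.26 and 0.22 of its 0 h level. Of the transporters 7 of 9 were tested. Slc38a2, a sodium-coupled carrier of neutral amino acids, rose in Cre plus livers at 30 h by 1.68 ± 0.47 (adjusted p = 0.0244), a call lost without 0 h replicate C or D or 30 h replicate B or C (up to 0.0962) and with the replicate letter as a block (0.0687). Its change was 2.31 in PHX2 and 0.72 in PHX3, which held 1 Cre plus liver at 30 h. Slc1a5, the glutamine carrier, reached 0.36 ± 0.17 (Cre plus, 40 h, adjusted p = 0.213).

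All 13 aminoacyl-tRNA synthetase and tRNA export genes were tested. Gars rose in Cre minus livers at 20 h by 0.73 ± 0.18 (adjusted p = 0.0135; 0.0646 without 20 h replicate B), and Tars fell at 40 h by 1.12 ± 0.23 in livers without Cre (0.0036) and by 0.89 ± 0.22 in those with it (0.0108). Both calls of Tars held on leaving out any liver, and the second was lost in a fit of those 2 groups alone (0.0765). The fall of Tars at 40 h was 0.51 and 1.53 within PHX2 and PHX3 in Cre minus livers and 0.24 and 1.37 in Cre plus livers. PHX2 held 1 Cre minus liver at 40 h. Further calls, named after their values were seen, were Cars, lower at 20 and 30 h (by 0.39 and 0.31 in Cre minus and by 0.27 and 0.39 in Cre plus livers), Yars, lower at 30 h in Cre plus livers by 0.43, and the transporter Slc6a9, lower at 40 h in Cre plus livers by 0.29. Those of Cars at 20 h in Cre minus and 30 h in Cre plus livers held on leaving out any liver, and the other 4 did not. That of Slc6a9 (adjusted p = 0.0432) was also lost in 5 of 8 alternative fits (up to 0.151), and that of Yars with the replicate letter as a block (0.0653). With the compared groups alone Cars lost its calls at 20 h in Cre plus (0.0779) and at 30 h in Cre minus livers. The latter was lost without the 3 arrays under 0.95 as well (the 2 fits up to 0.161). At 30 h in Cre plus livers 1 of the 13 estimates was positive, with a median of -0.28 beside -0.00 over all tested probe sets. Of the secreted proteins 2 of 6 were tested, Stc2 and Vegfa, and neither was called. Stc2, stanniocalcin 2, had its widest change in Cre minus livers at 20 h, -0.21 (adjusted p = 0.232), and Vegfa, the endothelial growth factor, lay within 0.10 of its 0 h level.

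The list of other endoplasmic reticulum stress arms, which lie beside the ATF4 arm, had 9 of 12 genes tested. Dnajc3, an inhibitor of eIF2 kinases, rose in Cre minus livers by 0.81 ± 0.22 at 20 h and 0.87 ± 0.22 at 30 h (adjusted p = 0.022 and 0.0282). Without the batch term neither was called (0.0919 and 0.113), nor was the 20 h one without 0 h replicate A or C or 20 h replicate A or B (up to 0.0999), nor the 30 h one without any of 6 livers, all but 0 h replicate B and 30 h replicate C (up to 0.102). Dnajb9, a cochaperone of BiP, had genotype differences of -0.60, -0.61, -0.59 and -0.57 in order of time with standard errors of 0.45 to 0.51, and none was called. Between genotypes 0 of 9 was called at any time, with 0, 0, 2 and 1 under 0.05 unadjusted, and 1, 1, 1 and 4 of the 9 estimates were positive.

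The genes whose level followed each member most closely over the 32 livers were found by Pearson r, as a description, since the arrays share group, time and batch. For Slc3a2 they were Cidec (r = 0.95) and Plin2 (r = 0.94), which both encode lipid droplet proteins, and 4.98% of all probe sets exceeded 0.7. Cidec read 4.35 to 4.80 in Cre minus and 4.12 to 4.47 in Cre plus livers at 0 h, 5.86 to 9.76 and 5.40 to 9.35 at 20 h, 4.47 to 10.10 and 7.57 to 9.20 at 30 h, and 4.38 to 5.06 and 4.57 to 9.28 at 40 h. Plin2 ran from 11.06 to 11.52 in Cre minus and from 11.64 to 13.39 in Cre plus livers at 40 h, a difference that was not called (adjusted p = 0.102). In 30 h Cre plus livers Cidec was spread out while Slc3a2 was not (9.36 to 9.56).

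Nearest to Atf4 were Rbm39 (r = 0.81), a splicing factor, and Slc23a2 (r = 0.81), a vitamin C carrier. Rbm39 ran from 4.86 to 6.37 in Cre plus livers at 30 h, with a median of 6.27, and its 40 h Cre plus values ran from 4.27 to 6.69 around a median of 4.53. Ddit3 was followed by Dmgdh (r = 0.76), a choline pathway dehydrogenase of liver mitochondria, and Ces2g (r = 0.72), a carboxylesterase, with 0.0242% of probe sets over 0.7. Dmgdh read 10.06 to 10.30 in Cre minus and 10.41 to 10.78 in Cre plus livers at 40 h, without overlap, as in 6.11% of all probe sets. That genotype difference was not called (adjusted p = 0.0514). Since Dmgdh was picked for following Ddit3 over these same livers, its separation is no separate evidence. Asns was followed by Lrg1 (r = 0.79), a secreted acute phase glycoprotein, and Ldha (r = 0.75), lactate dehydrogenase A. Lrg1 was 11.02 to 11.37 in both genotypes at 0 h and 11.41 to 12.83 later. For Trib3 the genes were C1ra (r = 0.71) and Rasal1 (r = 0.69), and for the dim Phgdh probe set Tbl3 and Pdxk (both r = 0.64).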

How the data were processed

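Total RNA of 32 livers was measured on 1-colour Affymetrix arrays, from 6 ug per sample per the labels' protocols. The deposited values are log2 levels of 12488 probe sets, computed by the authors through RMA according to the submitters' processing notes. No source used here gives its version or says whether PHX2 and PHX3 went through it as 1 set. RMA shares a reference distribution between arrays, and no counts or depth underlie the values, so precision is limited by the number of arrays.

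Of the probe sets, 66 were controls, 10833 had 1 gene, 396 several and 1193 were unnamed here. For 10817 of those with 1 gene the symbol was brought up to date by gene ID with RefSeq's table (GRCm38.p6). Probe sets above the 30th percentile of their own array on at least 3 arrays, 9249 in all, were fitted with limma 3.58.1 (R 4.3.3) on 8 groups plus batch, with eBayes and Benjamini-Hochberg adjustment within each of 13 comparisons, 2-sided. The fit was tested on simulated data. Correlations used 2-sided permutation tests of 100000 resamples (Python 3.11.15, scipy 1.17.1), adjusted over 10 pairs. Alternatives were no filter, no batch term, median centring, quantile normalization, array weights, the compared arrays alone, leaving out 3 arrays that correlate under 0.95 with their group, the replicate letter as a block, each batch alone, and each liver left out.

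Named beyond the members were Rps6, pathway genes called between genotypes, the 2 genes per role with the largest change in Cre minus livers, and the 2 genes most like each member. Members, lists and alternatives were chosen with earlier results of these data known. Whether the same replicate letter marks a pair is not stated in the labels. Over 15 letter pairs within a time, deviations from group means correlated between -0.47 and 0.40, and 7 were over 0.1. The 3 pairs that lay in different batches read -0.24, -0.23 and -0.47. These deviations still held any difference between the batches, so they cannot tell whether a letter marks a pair.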

Additional observations from a re-analysis of the deposited data

Results flagged for a closer look

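In the resting Cre plus livers, 1 of the 4 Ddit3 levels stood apart, at 7.36 against 7.03, 7.06 and 7.07 in the others. Its gap to the next liver was 0.874 of the range of the group, above Dixon's 95% critical value for a group of 4. It was the 1 such case in 49 groups of member probe sets examined, where chance gives about 1 in 20. The levels compared were not adjusted for batch, and this liver, replicate B, was in PHX3, where Ddit3 was higher by 0.29. As a residual from group and batch it read 0.08, beside -0.20, 0.04 and 0.07 in replicates A, C and D, so it no longer stood apart. No member's time course was called different between genotypes, and in no member did all livers of one genotype move up while all of the other moved down.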

How the results depend on the processing

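Counts are of the 5 tested members called. Between genotypes at 30 h (0 in the report) the count was 3 with array weights, 1 without the 3 arrays correlating under 0.95, and 0 to 1 on leaving out a liver. Between genotypes at 40 h (1 in the report) it was 0 without the batch term and 2 without the 3 arrays, and 0 to 2 on leaving out a liver. In Cre minus livers at 20 h (0) it was 1 with array weights, without the 3 arrays, or with the compared arrays alone, and 0 to 1 on leaving out a liver. At 30 h (1) it was 3 with array weights, 0 with the compared arrays alone and 0 to 1 on leaving out a liver. At 40 h (1) it was 0 without the batch term, 2 with the compared arrays alone and 0 to 1 on leaving out a liver. In Cre plus livers at 20 h (2) it was 0 to 2 on leaving out a liver. At 30 h (1) it was 4 with array weights, 2 with the compared arrays alone and 0 to 1 on leaving out a liver. At 40 h (0) it was 1 with quantile normalization, without the 3 arrays, or with the compared arrays alone, and 0 to 1 on leaving out a liver. The test of the 30 h genotype difference against that at 0 h (0) gave 2 with array weights. With the replicate letter as a block, the count fell to 0 for Cre plus livers at 30 h as well as for the genotypes at 40 h, and moved in no other comparison. The causes were not tested. Of the single member differences and correlations under the alternatives other than leaving out a liver, 703 kept their side of the threshold, 24 passed it newly and 18 lost it. None that was called changed sign. Calls lost or gained on leaving out a liver come on top of these counts and are given with each member.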
